A study of Rattus norvegicus with 12 samples.

Results

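The rostral ventrolateral medulla (RVLM) of aged male F344 rats was compared with that of young ones across all named genes, with most attention to families outside the immune, myelin and sterol genes. The comparison used every array of the 24-month group and every array of the 3-month group, which are 8 of the 12 arrays and 6 of the 9 animals of the study; the remaining 4 arrays came from 3 rats of 12 months. Young rats weighed 301 ± 20 g and aged rats 413 ± 20 g. All were males of this inbred strain, fed freely and held on a 12:12 light-dark cycle. Each was decapitated under deep isoflurane anaesthesia, the brain was snap frozen, and the RVLM was taken from it by micropunch. The labels call the samples biological replicates and give no time of day. Replicate 3 of each group was hybridised to 2 arrays, which were averaged, so that the animal was the unit and each side had n = 3. Only 1 of the 3 slides (slide 3) held young as well as aged arrays, so slide is partly confounded with age, and differences with slide as a block are given where they end a call.

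The RVLM holds the C1 neurons, which make catecholamines and drive the sympathetic nerves to heart and vessels, among many other neurons, glia and blood vessels. A micropunch is therefore a bulk sample in which fewer cells of a type and less RNA per cell cannot be told apart. Levels below are log2 signals of a 60-base probe relative to the 75th percentile of its array, so a level of 0 is that percentile itself and each step of 1 is a doubling. Differences are aged minus young on this scale, with the limma standard error (SE). A gene passed at a two-sided limma p under 0.05 after Benjamini-Hochberg adjustment across all items tested, and only genes that passed are said to have risen or fallen. Levels of different probes are not compared with each other.

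The tissue label was checked against markers. Neuronal markers were measured in all 15 of 15 genes, with a summed linear level of 604.1 to 693.9 times the 75th percentile in young animals and 553.9 to 665.7 in aged ones, and none of them passed. Dbh and Th, enzymes of catecholamine synthesis, were above background in both groups, and none of the 6 tested markers of such neurons passed. On the list of forebrain and cerebellar neurons 6 genes were above background, among them Calb1, Pcp2 and Car8, and 5, among them Emx1, Emx2, Dlx5 and Gabra6, were not. Their summed level was 3.25 to 4.51 in young and 3.15 to 3.57 in aged animals. Slc6a2, the noradrenaline transporter, was not well above background on every array of any group, and no named probe was available here for Pnmt, which makes adrenaline. The median absolute difference between arrays of the same animal was 0.056 to 0.061 log2 units, and that between animals of a group 0.103 to 0.155. Young and aged animals lay apart on the first principal component of the 6 animals (36.4% of variance; −28.5 to −15.3 against 15.9 to 26.6). On the second (27.3%), young replicate 2 and aged replicate 3 lay at −21.3 and −31, against 6.6 to 16.9 for the others. HOX genes, which mark position along the hindbrain, moved with it: the level of Hoxa5 was 2.64, 3.47 and 1.31 in the young animals and 1.52, 1.30 and 2.87 in the aged ones. Young replicate 1 stood apart in other genes: Neurod1, a gene of cerebellar granule cells, was at −0.10 in it and between −3.19 and −2.87 in the other 5, and Pcp2, of Purkinje cells, at −0.76 against −3.34 to −2.96. The part of these differences between single animals in the results below was not tested beyond the fits that leave animals out.

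Of 25452 items tested, 513 (2.02%) passed, of which 382 (1.5%) rose and 131 (0.515%) fell in aged animals. Of these, 307 bear a gene symbol, and 113 of the 307 are on the immune, myelin and sterol lists that were set aside. Those lists are not complete, so genes known from immune cells remain among the rest. The other 194, of which 138 rose and 56 fell, are the subject here. In all 194 the 3 aged animals lay outside the range of the 3 young ones; over all items, 12.8% had every aged animal above every young one and 10% had every aged animal below. The median absolute difference of the 194 was 0.71 log2 units. Over all items the median signed difference, which shows direction and not size, was 0.02. All 194 had the same sign in the arrays of slide 3 and 193 with slide as a block, the exception being Pxmp4 (−0.37, and 0.03 in the blocked fit). The shared signs and the lack of overlap come from the arrays that gave the calls and are no independent support. With slide as a block 102 of them passed, and 78 passed in every one of the 9 fits that left out 1 animal. Without young replicate 2 and aged replicate 3, the pair apart on the second component, 46 of the 194 passed, a fit added after seeing the data. Among genes described below it kept, for example, Gipr, Pou3f1, Igf2bp2, Casr, Bpifb4, Trim55, Fmo2, Gsta3, Hpgds, Tbxas1, Ptger1, Alox5, Mmp14, Sema3b, Slc2a5 and Mgmt, and it lost, among others, Per2, Bhlhe41, Dbp, Adm, Gsta1, Mgst1, Ptgs1, Alox5ap, Ltc4s, Ass1, Urah, Qdpr, Cyp2j10, Rai14, Cnr2, Npc2, Grn, Ccne2, Slc9a3, Mlph, Capn6 and all matrix genes named below. Among the genes just named, Hpgds, Alox5, Alox5ap and Npc2 are on the lists set aside and do not belong to the 194. The level at 12 months lay between the young and the aged mean for 183 of the 194. These genes were picked for the gap between those means, so the count is no measure of gradual change. Of 65 family lists with 2880 tested genes, 26 lists had no member that passed and 8 had 3 or more. Counts on the lists below stand beside the shares over all items, 2.02% passed, 1.5% up and 0.515% down.

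**Figure D1:**
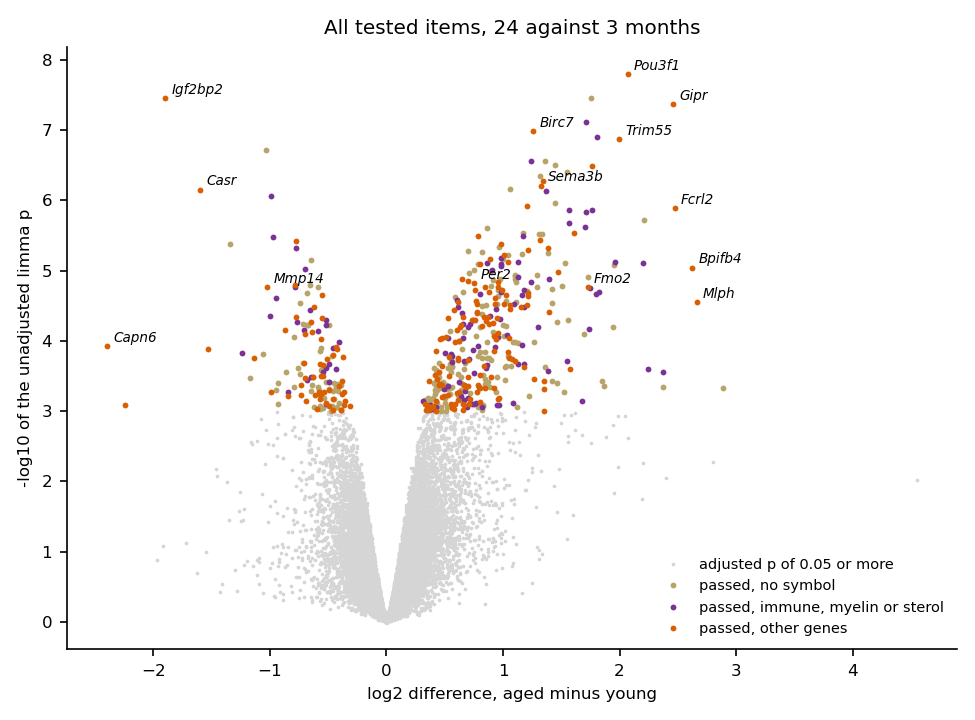
Each point is 1 of the 25452 items, with the log2 difference of 3 aged minus 3 young animals on the x axis and −log10 of the unadjusted limma p on the y axis. Orange points are the 194 genes that passed and are not on the immune, myelin and sterol lists set aside. Purple points are the 113 on those lists, tan points passed without a symbol, and grey points did not pass. More coloured points lie on the right (382) than on the left (131).

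Among the 194 genes, the changes with the smallest adjusted p, 0.00027 in limma for each, were those of Gipr, Pou3f1 and Igf2bp2. Their array probes, with that of Casr, are shown because the strongest calls rest on these single 60-base sequences. On rat build rn3, per the file headers, the probe of Gipr lies at chr1:78593703-78593762 (minus strand), that of Pou3f1 at chr5:143994228-143994287 (plus), that of Igf2bp2 at chr11:81273629-81273688 (plus) and that of Casr at chr11:66142002-66142060 (minus). They are written 5′ to 3′ as in the array files.
Gipr: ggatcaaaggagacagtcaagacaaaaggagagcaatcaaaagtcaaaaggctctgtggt
Pou3f1: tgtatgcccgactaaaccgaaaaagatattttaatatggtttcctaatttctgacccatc
Igf2bp2: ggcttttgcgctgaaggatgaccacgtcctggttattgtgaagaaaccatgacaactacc
Casr: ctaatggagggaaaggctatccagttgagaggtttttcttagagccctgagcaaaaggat

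Gipr encodes the receptor for the gut hormone GIP, a G protein-coupled receptor that signals through cyclic AMP. Its level was −2.43, −2.36 and −2.44 in the young animals and 0.32, 0.02 and −0.20 in the aged ones. The groups were far apart, and the difference of 2.46 ± 0.14 is a 5.5-fold rise; at 12 months the levels of −0.05, −0.39 and −0.24 were already close to the aged ones. Pou3f1, a POU-domain transcription factor known from Schwann cells and neural progenitors, was at −3.87, −4.15 and −3.90 in young and −1.94, −1.85 and −1.91 in aged animals. Its difference was 2.07 ± 0.10, with tight groups on both sides and 12-month levels between them (−3.30, −3.20 and −3.01). Igf2bp2 encodes an RNA-binding protein that binds the messages of insulin-like growth factor 2 and other genes. Its level was −1.81, −2.15 and −2.02 in young and −3.83, −3.87 and −3.97 in aged animals, a difference of −1.90 ± 0.10 with no overlap. Casr, the calcium-sensing receptor, was at −3.13, −3.10 and −2.90 in young and −4.57, −4.48 and −4.88 in aged animals. It fell by 1.60 on the log2 scale (SE 0.13, adjusted p = 0.00094), and the middle-aged animals (−4.65, −4.46 and −4.37) lay with the aged ones. These were the only members that passed among 61 tested receptors for neuropeptides and peptide hormones (Gipr, Casr), among 60 neural transcription factors (Pou3f1) and among 36 genes of insulin and insulin-like growth factor signalling (Igf2bp2).

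**Figure D2:**
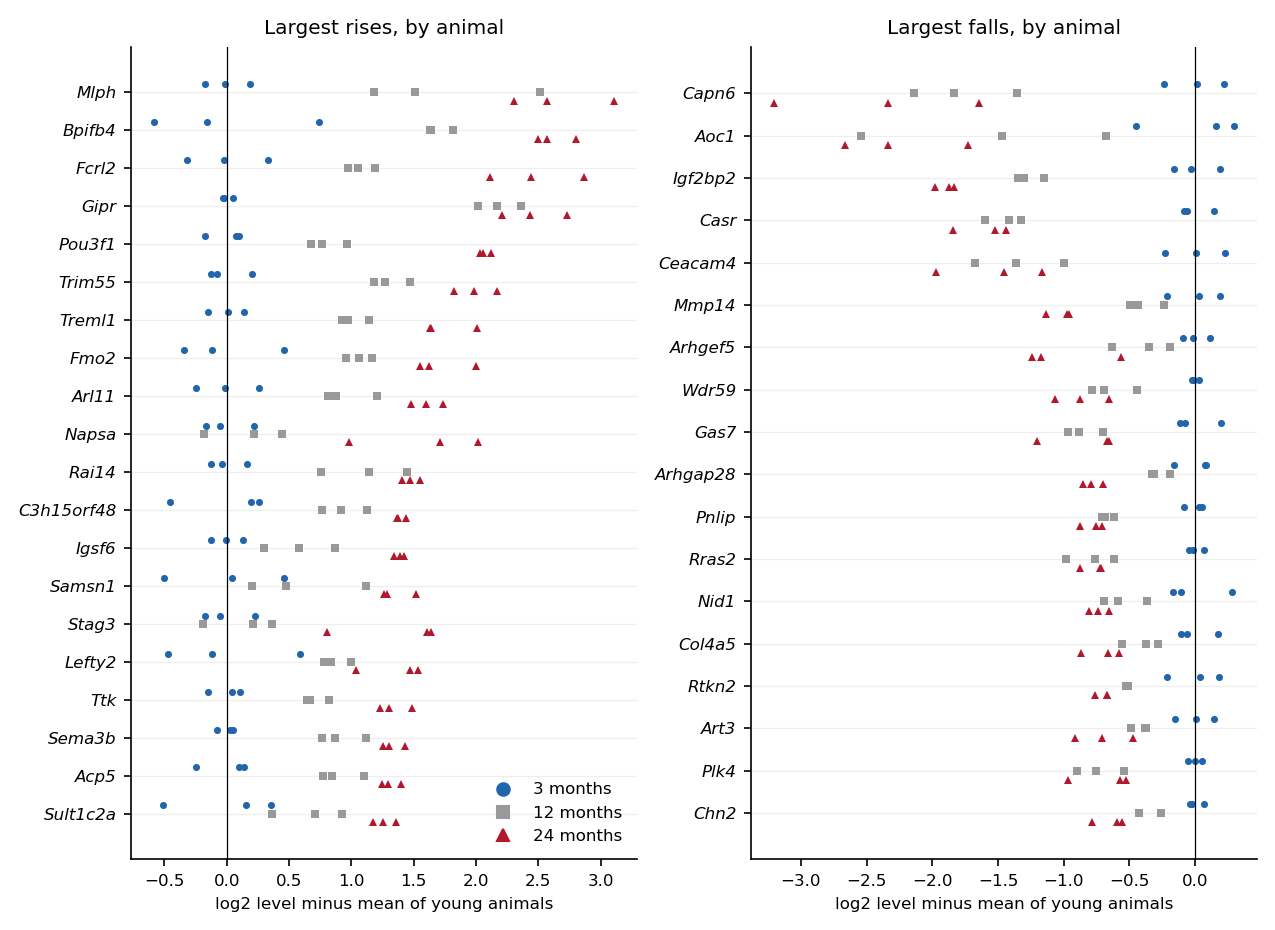
Each row is 1 of the largest rises (left) or falls (right) among the 194 genes (those reported here), and each point is 1 animal's log2 level minus the mean of the 3 young animals; circles are 3 months, squares 12 months and triangles 24 months. Every triangle lies outside the range of the circles of its row, and for Gipr, Casr and Pnlip the squares lie near the triangles.

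Mlph, a linker of melanosomes to myosin, was not well above background on any of the 4 young arrays and was on all 4 aged ones. It rose at least 3.75-fold (adjusted p = 0.0055); its fitted difference of 2.66 is no measured size, and it did not pass with the normexp background correction (0.50, adjusted p = 0.21). Bpifb4, of the lipid-binding BPI fold family, was at −5.01, −4.12 and −5.44 in young and −2.36, −2.29 and −2.05 in aged animals. It rose by 2.62 ± 0.28 (adjusted p = 0.0034), although the young animals themselves were the more spread group. Trim55, a RING finger protein of the muscle sarcomere, was at −5.57, −5.61 and −5.29 against −3.32, −3.67 and −3.50 and rose by 1.99 ± 0.13 (adjusted p = 0.00043). Of 62 tested muscle and contractile genes it was the only one that rose. Rai14, a filament-associated protein, rose by 1.48 ± 0.16 (adjusted p = 0.0036), Ttk, a kinase of the mitotic spindle checkpoint, by 1.34 ± 0.10 (0.00084) and Birc7, of the inhibitor of apoptosis family, by 1.26 ± 0.08 (0.00043). These 3 kept their calls with slide as a block and with each animal left out.

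A set of the largest rises are genes known from leukocytes, although they were not on the immune lists set aside here. Fcrl2, the rat counterpart of a microglial marker, was at −0.47, −1.13 and −0.83 in young and 2.05, 1.31 and 1.63 in aged animals and rose by 2.47 ± 0.21 (adjusted p = 0.0013). Treml1, a receptor of platelets and myeloid cells, rose by 1.76 ± 0.13 (0.00063) and Arl11, a small GTPase of macrophages, by 1.61 ± 0.15 (0.0022), with all aged above all young animals. A second probe of Arl11 gave 1.73 and of Treml1 0.80. Igsf6 (1.39), Cnr2, the cannabinoid receptor of immune cells (1.20 ± 0.15, adjusted p = 0.0057), and Acp5, an acid phosphatase of macrophages and osteoclasts (1.31 ± 0.13, 0.0024), also rose. Of 16 tested microglial markers 10 rose, with Fcrl2 itself among the 10, and their summed linear level was 51.11 to 57.98 in young and 97.33 to 114.6 in aged animals, with Siglech not above background. Lymphocyte markers were scarce, with Cd2, Cd3e, Cd5, Cd79b, Cd8a, Gzmb, Klrd1 and Ms4a1 among those not above background and a summed level of 0.958 to 1.13 against 1.86 to 2.11 (3 of 9 rose). Markers of perivascular macrophages, monocytes and neutrophils summed to 0.644 to 0.849 in young and 1.13 to 1.65 in aged animals (2 of 9 rose; Ccr2, Cd163, Itgal, Ly6c and Mpo were not above background). Red blood cell genes summed to 77.7 to 104.9 against 113.0 to 157.6 (0 of 8 passed). The part of these cell types in the rises was not tested. Napsa (1.57) and Samsn1 (1.35) passed, but Napsa did not pass in the blocked fit (adjusted p = 0.057) or when any of young replicates 2 and 3 and aged replicates 1 and 3 was left out (differences 1.35 to 1.87). Samsn1 did not pass in the blocked fit (0.16) or in 7 of the 9 fits with 1 animal left out (adjusted p up to 0.15).

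Among the largest falls, Capn6, a calpain without protease activity that binds microtubules, was at −4.67, −4.87 and −5.12 in young and −7.23, −6.53 and −8.09 in aged animals. No aged array was well above background for it, so it was at least 2.29-fold higher in young animals (difference −2.40 ± 0.36, adjusted p = 0.013); the call was lost in the blocked fit (adjusted p = 0.12), with normexp (−0.46) and when young replicate 1 or 2 was left out. Mmp14, a membrane-anchored matrix metalloprotease, was at 1.80, 1.39 and 1.63 in young and 0.65, 0.47 and 0.64 in aged animals. Its difference of −1.02 ± 0.12 (adjusted p = 0.0044) held with slide as a block and with each animal left out, and it was the only one of 28 tested metalloproteases and inhibitors that passed. Wdr59, a subunit of the GATOR2 complex that acts on nutrient signalling by mTORC1, was at −1.28, −1.33 and −1.31 in young and −2.18, −1.96 and −2.37 in aged animals (−0.87 ± 0.12, adjusted p = 0.0092). Pnlip, named for pancreatic lipase, fell by 0.78 on the log2 scale (adjusted p = 0.0024) and Rras2, a RAS-related GTPase, fell by 0.77 (0.0074). In each of these 3 genes every aged animal lay below every young one, and the calls held with slide as a block. Ceacam4 fell by 1.53 (adjusted p = 0.014), and a second probe gave −1.39; it did not pass when young replicate 2 or young replicate 3 was left out.

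Enzymes that act on foreign and endogenous small molecules were, with the eicosanoid genes, the list with the most members that rose (6). The flavin-containing monooxygenases oxidise nitrogen and sulfur compounds, and the alpha-class glutathione transferases (Gsta) couple glutathione to reactive lipids. Of 83 tested genes of glutathione transferases, cytochromes P450 and related enzymes 6 rose and 1 fell, and 4 of these 7 also passed with slide as a block. Over all items 1.5% rose and 0.515% fell. The list's median difference was 0.03, close to that of all items (0.02). The probes of Fmo2, Gsta1 and Gsta3 are shown because members of these families have similar messages. The best ungapped match between the probes of Gsta1 and Gsta3 was 23 of 60 bases. Probes were compared only with each other, so binding to a relative's message was not tested. On rn3 the shown probes lie at chr13:78560590-78560649 (Fmo2, minus strand), chr9:20048980-20049039 (Gsta1, minus) and chr9:20026833-20028860 (Gsta3, plus, a range wider than the probe).
Fmo2: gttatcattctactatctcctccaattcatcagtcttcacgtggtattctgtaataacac
Gsta1: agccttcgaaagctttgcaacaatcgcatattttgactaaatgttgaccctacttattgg
Gsta3: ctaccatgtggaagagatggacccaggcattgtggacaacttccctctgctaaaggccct

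The level of Fmo2 was −3.60, −2.80 and −3.38 in young and −1.63, −1.71 and −1.26 in aged animals, a rise of 1.73 ± 0.20 (3.31-fold, adjusted p = 0.0044). The groups did not overlap, and the call held with slide as a block and with each animal left out. The relatives Fmo1 (0.37), Fmo4 (0.01) and Fmo5 (0.16) did not pass. Gsta1 was at 4.34, 4.09 and 4.25 in young and 4.97, 4.87 and 5.16 in aged animals and rose by 0.77 ± 0.10 (adjusted p = 0.0068). Gsta3 was at 1.89, 1.80 and 1.93 against 2.59, 2.49 and 2.83 and rose by 0.76 ± 0.09 (0.0055). Both held with slide as a block and with each animal left out, while Gsta4 (0.18) and Gstp1 (0.40, adjusted p = 0.074) did not pass.

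Abcc3, an export pump for conjugates, rose by 0.61 ± 0.09 (adjusted p = 0.0092; not passed in the blocked fit, 0.40 with adjusted p = 0.32), Aldh1l2, a mitochondrial folate enzyme, by 0.80 ± 0.15 (0.031; lost with slide as a block, 0.099, and in 5 of the 9 fits with 1 animal left out) and Mgst1, a membrane glutathione transferase, by 0.38 (0.047; lost with slide as a block, 0.085, and in all 9 fits). The largest difference on the list, that of the carboxylesterase Ces1d (2.20 ± 0.75), did not pass (adjusted p = 0.22): the young animals were at −4.85, −6.26 and −3.17, a wider spread than that of the aged ones at −2.97, −2.88 and −1.85. Outside the list, Cyp2d5, of the cytochrome P450 2D family, was at −3.05, −3.40 and −3.32 in young and −1.88, −2.11 and −2.13 in aged animals. It rose by 1.22 ± 0.12 (adjusted p = 0.0028), whereas the difference of its relative Cyp2d4 was −0.06. The best ungapped match of their probes with each other was 19 of 60 bases, and binding to the relative's message was not tested. Cyp2j10, of a family that makes epoxides from arachidonic acid, was at −0.62, −0.61 and −0.64 in young and −1.20, −1.19 and −1.41 in aged animals (−0.64 ± 0.09, adjusted p = 0.0096). Among other metabolic enzymes, Ass1, of the urea cycle and arginine supply, rose by 0.64 ± 0.09 (0.0083), Urah, of uric acid breakdown, by 1.22 ± 0.15 (0.0047), and Pygl, the liver-type glycogen phosphorylase, by 1.21. Qdpr, which regenerates tetrahydrobiopterin, the cofactor of tyrosine hydroxylase, was at 7.29, 7.36 and 7.43 in young and 7.96, 7.99 and 7.89 in aged animals and rose by 0.58 ± 0.08 (0.0063).

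Of 31 tested eicosanoid genes 7 passed (22.6%, beside 2.02% of all items), the highest share among the family lists. The marker lists of microglia (62.5%) and lymphocytes (33.3%) had higher ones. Eicosanoids are lipid signals cut from membrane arachidonic acid: cyclooxygenase makes the prostaglandin precursor, and 5-lipoxygenase with its activating protein makes leukotrienes. On the prostaglandin and thromboxane branch the synthase genes Hpgds and Tbxas1 rose. Hpgds, the haematopoietic prostaglandin D synthase, went from −5.98, −6.01 and −5.64 to −4.54, −4.05 and −4.34, at least 2.95-fold (1.57 ± 0.14, adjusted p = 0.0018). Tbxas1, thromboxane synthase, rose by 0.99 ± 0.10 (0.0026). Ptgds, another prostaglandin D synthase, did not pass (0.13). On the leukotriene branch the messages of Alox5, Alox5ap and Ltc4s did not change together, and Lta4h (0.04) did not pass. The 5-lipoxygenase gene Alox5 was at −3.53, −3.59 and −3.80 in young and −4.86, −4.69 and −4.35 in aged animals and fell by 1.00 on the log2 scale (SE 0.13, adjusted p = 0.0072). Its activating protein Alox5ap rose by 0.85 ± 0.14 (0.021), and Ltc4s, which makes leukotriene C4, was at −1.72, −1.95 and −1.78 against −0.66, −1.03 and −0.89 and rose by 0.95 ± 0.11 (0.0042). The prostaglandin E receptor gene Ptger1 rose by 0.96 ± 0.11 (0.0044; 0.25 and not passed with normexp), and Ptgs1, cyclooxygenase 1, by 0.61 ± 0.11 (0.034). Of the 7 genes that passed, all but Ptgs1 (0.59, adjusted p = 0.068) also passed in the blocked fit. Alox5ap did not pass when any of young replicates 2 and 3 and aged replicates 1 and 3 was left out (0.72 to 0.93), and Ptgs1 in 8 of the 9 fits (0.50 to 0.68). Microglial marker levels are given above; several of these genes are known from microglia, and the part of that cell type was not tested.

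The clock genes with calls were Per2, Bhlhe41 and Dbp. In the circadian clock BMAL1 and CLOCK or NPAS2 activate the Per and Cry genes through E-box sequences, PER and CRY proteins repress them in turn, and outputs such as DBP act on D-boxes. Of 24 tested clock genes 3 rose and none fell (12.5%, beside 2.02% of all items that passed), with a list median of 0.12. Per2 was at −0.90, −0.80 and −0.72 in young and −0.09, −0.04 and −0.04 in aged animals and rose by 0.75 ± 0.09 (adjusted p = 0.0043). Bhlhe41, an E-box repressor, was at 4.62, 4.44 and 4.75 against 5.16, 5.27 and 5.26 and rose by 0.63 ± 0.09 (0.0086). Dbp was at 2.37, 2.32 and 2.40 against 2.89, 2.95 and 2.84 and rose by 0.53 ± 0.07 (0.0075). In each of the 3 genes the groups were clearly apart, and the calls held with slide as a block and with each animal left out. On the whole list 15 differences were positive and 9 negative, the lowest at −0.60. The activator genes Bmal1 and Npas2 had negative differences that did not pass, and the value of Clock is not reported here. Bmal1 was at 0.91, 0.64 and 0.61 in young and 0.37, 0.20 and 0.47 in aged animals (−0.37 ± 0.10, adjusted p = 0.14). Npas2 was at −3.69, −3.58 and −3.65 against −3.98, −4.13 and −3.97 (−0.38 ± 0.09, adjusted p = 0.080). Neither pair of groups overlapped. Per3 (0.43, adjusted p = 0.14), Per1 (0.15) and Nr1d1 (−0.03) did not pass. The hour at which each brain was taken is not given in the labels.

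The promoters of Per2 and Bhlhe41 are shown because these genes rose together and are known targets of clock factors. The windows run from 250 bases before to 50 bases after the RefSeq start on build GRCr8, and lie at chr9:99496944-99497243 (Per2) and chr4:180569306-180569605 (Bhlhe41), both on the minus strand. Capitals mark matches, on either strand, to the E-box CACGTG, to CACGTT or to the D-box TTATGTAA.
Per2: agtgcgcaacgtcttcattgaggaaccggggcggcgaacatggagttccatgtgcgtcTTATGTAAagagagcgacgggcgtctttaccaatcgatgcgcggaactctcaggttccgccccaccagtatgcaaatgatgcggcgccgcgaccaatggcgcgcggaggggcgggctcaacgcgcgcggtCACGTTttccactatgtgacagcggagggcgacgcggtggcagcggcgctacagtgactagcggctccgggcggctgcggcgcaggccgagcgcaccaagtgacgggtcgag
Bhlhe41: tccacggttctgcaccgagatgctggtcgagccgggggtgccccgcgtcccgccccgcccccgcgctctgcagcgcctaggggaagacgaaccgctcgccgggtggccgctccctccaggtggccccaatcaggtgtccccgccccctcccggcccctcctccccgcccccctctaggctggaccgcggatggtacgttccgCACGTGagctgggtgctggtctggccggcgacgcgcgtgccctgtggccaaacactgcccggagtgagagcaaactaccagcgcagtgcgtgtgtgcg

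The first match in Per2 is TTATGTAA at −192 from the start and the second CACGTT at −62, and Bhlhe41 holds CACGTG at −48. The window of Dbp held none of the 3. Over 33469 rat promoter windows of the same length 6.42% held CACGTG, 4.83% CACGTT and 0.893% TTATGTAA, and of 20 clock genes with a window 3, 4 and 1 did. A match is a description of the letters only.

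**Figure D3:**
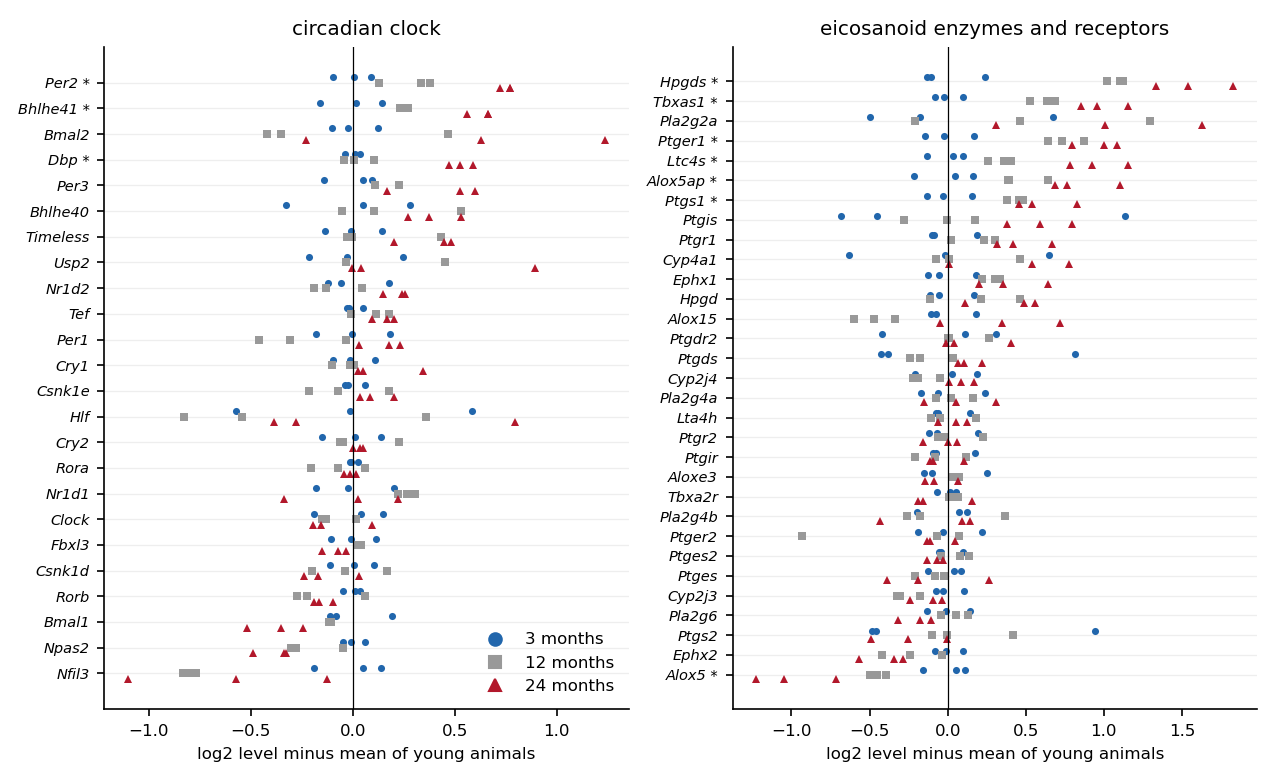
Each row is a tested clock gene (left, 24) or eicosanoid gene (right, 31), ordered by its difference, and each point is 1 animal's log2 level minus the mean of the 3 young animals; an asterisk marks genes that passed. In Per2, Bhlhe41 and Dbp the 24-month triangles lie right of all circles, and in Alox5 alone of the starred genes they lie to the left.

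Receptors and signals that act on vessels and sympathetic neurons contributed single genes. Adm encodes adrenomedullin, a peptide that widens vessels and acts in the brainstem on blood pressure. Its level was −0.30, −0.09 and −0.02 in young and 0.76, 0.92 and 1.09 in aged animals, a rise of 1.06 ± 0.14 (adjusted p = 0.0061) and the only call among 54 tested neuropeptide genes. The groups were clearly apart, and the call held with slide as a block and with each animal left out. Fgf2, a growth factor of astrocytes and vessels, rose by 0.84 ± 0.14 (0.020), with a second probe at 0.54; it did not pass with slide as a block (0.056) or when young replicate 1, young replicate 3 or any aged animal was left out (0.72 to 0.92). In the renin-angiotensin system the differences of Agt, the angiotensin precursor (−0.01), and Agtr1a, the angiotensin receptor (−0.05), did not pass.

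Of the genes of catecholamine synthesis, storage and breakdown, 1 of 22 passed, Qdpr. Dbh, which makes noradrenaline, was at 0.87, 1.13 and 0.51 in young and −0.07, −0.48 and 0.27 in aged animals. The groups did not overlap, but the difference of −0.93 ± 0.20 did not pass (adjusted p = 0.064), and it was −0.23 within slide 3. Th, tyrosine hydroxylase, was at 1.39, 1.44 and 1.79 against 2.12, 1.11 and 1.22, with overlapping groups (−0.06, adjusted p = 0.95). The summed level of markers of noradrenergic and adrenergic neurons was 13.29 to 14.88 in young and 8.867 to 12.83 in aged animals, and 0 of 6 passed. Transmitter genes of other neurons did not pass either: Slc17a6, the vesicular glutamate transporter (−0.03), Gad1, which makes GABA (−0.20), Slc6a5, the glycine transporter (0.21), Npy (−0.41, adjusted p = 0.35), Penk (0.01) and Tac1 (0.25). No member passed among 26 ionotropic glutamate receptor genes, 23 metabotropic receptor and glutamate transporter genes, 34 GABA and glycine genes, 19 sodium channels, 14 calcium channels, 18 acetylcholine genes or 15 serotonin genes, whose list medians lay between −0.09 and 0.02. Of 73 potassium channels Kcnn4, a calcium-activated channel of immune and other non-neuronal cells, passed (0.66, adjusted p = 0.048; 0.15 in the blocked fit), and of 51 synaptic vesicle genes Doc2a, a calcium sensor of release, fell by 0.50 on the log2 scale (0.045; 0.15 with slide as a block). Both also lost the call in most fits with 1 animal left out (7 and 8 of 9).

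Genes of the basement membrane, the sheet that surrounds vessels and the brain surface, had more falls than rises. Type IV collagen forms its net, nidogens tie that net to laminin, and Serpinh1 is the chaperone that folds collagen. The nidogen probes are shown since both genes of this small family fell. Their best ungapped match with each other was 21 of 60 bases, and binding to the relative's message was not tested. On rn3 they lie at chr17:66869378-66870231 (Nid1, a range wider than the probe) and chr15:4801457-4801516 (Nid2), both on the minus strand.
Nid1: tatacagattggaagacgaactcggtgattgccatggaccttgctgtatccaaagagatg
Nid2: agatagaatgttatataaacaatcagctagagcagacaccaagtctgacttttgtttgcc

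Nid1 was at −0.35, −0.80 and −0.74 in young and −1.29, −1.37 and −1.43 in aged animals (−0.73 ± 0.13, adjusted p = 0.030), and a second probe of it gave −0.23. Nid2 was at −1.41, −1.74 and −1.66 against −2.08, −2.14 and −2.21 (−0.54 ± 0.09, 0.026; 0.094 with slide as a block). The groups did not overlap in either gene. Serpinh1 was at 1.20, 1.01 and 1.01 in young and 0.58, 0.56 and 0.53 in aged animals and fell by 0.51 on the log2 scale (SE 0.08, 0.018), and Fbln2, fibulin 2, fell by 0.58 (0.035; 0.062 with slide as a block). Col4a5, a type IV collagen chain, fell by 0.70 (SE 0.11, 0.019) on its brighter probe, but its second probe gave 0.05. Matn2, matrilin 2, rose by 0.94 ± 0.14 (0.011), with a second probe at 0.90. Each of these calls was lost in some fits with 1 animal left out: Matn2 without young replicate 3 alone, Nid2 and Col4a5 in 4 fits, Nid1 and Serpinh1 in 5 and Fbln2 in 8, with the sign kept (for Nid1 −0.82 to −0.60, for Serpinh1 −0.54 to −0.45).

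On the lists, 4 of 42 laminin, basement membrane and matrix genes fell and 1 rose (median −0.12), beside 0.515% and 1.5% of all items. With slide as a block Nid1 and Matn2 passed and Nid2, Fbln2 and Vtn, vitronectin (−0.46, adjusted p = 0.048, and 0.064 blocked), did not. On the list of collagens and their processing, 2 of 40 fell, the collagen Col4a5 and the chaperone Serpinh1, and none rose (median −0.19), beside a median of 0.02 over all items. The median of that list was −0.22 in the blocked fit and −0.29 on slide 3, which holds no array of young replicate 1. Slide 3 sets young replicate 3 against aged replicate 3. The list's median level relative to the young mean was −0.33 in aged replicate 3 and −0.12 and −0.13 in the other aged animals. Without aged replicate 3 the median difference was −0.11. It was −0.13 when young replicate 1 was left out, the animal with the highest level of 24 of the 40. In fibroblast markers, which include fibrillar collagens, that animal was the highest of the 6 in 13 of 14; Col3a1 was at 0.30 in it, at −1.45 and −1.04 in the other young animals and at −2.07, −1.93 and −2.58 in the aged ones (−1.46, adjusted p = 0.14). No fibroblast marker passed. Their median difference was −0.41 over all 6 animals, −0.16 without young replicate 1 and −0.43 on slide 3. Their summed level was 120.2 to 148.3 in young and 138.7 to 139.5 in aged animals, with Slc47a1 not above background.

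**Figure D4:**
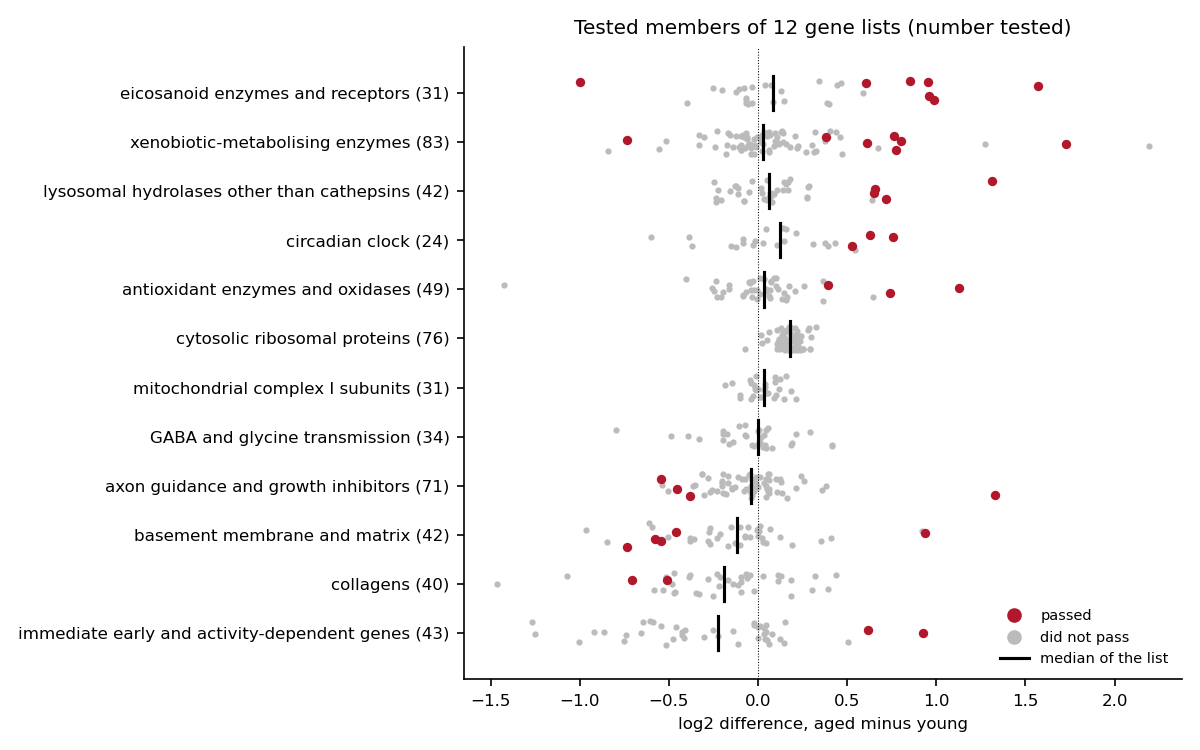
Each point is the log2 difference (aged minus young, n = 3 animals each) of 1 tested gene, in rows for 12 of the gene lists with the number tested in brackets; red points passed, grey points did not, and the black bar is the list's median. Red points lie mostly to the right in the eicosanoid (6 of 7), xenobiotic (6 of 7) and lysosomal (4 of 4) rows, and the ribosomal row is a narrow grey cluster with a median of 0.18.

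In the lysosomal hydrolases other than cathepsins 4 of 42 rose and none fell (median 0.06), beside 1.5% of all items that rose. Acp5 was described above. Npc2, a carrier of sterol in the lysosome, was at 2.68, 2.66 and 2.72 in young and 3.44, 3.34 and 3.23 in aged animals and rose by 0.65 ± 0.09 (adjusted p = 0.0083) and Grn, progranulin, by 0.65 ± 0.07 (0.0041). These 3 separated the groups and held with slide as a block and with each animal left out. The summed level of the microglial markers is given above, and the part of that cell type was not tested. None of 49 genes of autophagy and lysosomal acidification passed (median −0.06). Of 49 antioxidant enzymes and oxidases, Ncf1 and Cyba, subunits of the phagocyte NADPH oxidase, rose by 1.13 ± 0.18 (0.020) and 0.74 ± 0.11 (0.014), and Hmox1, haem oxygenase 1, by 0.39 (0.048). With slide as a block Cyba passed and Ncf1 (0.057) and Hmox1 (0.10) did not; without 1 animal, Cyba was lost in 2 fits (young replicate 3, aged replicate 1), Ncf1 in 5 and Hmox1 in 8. The other 46, which include the superoxide dismutases, catalase and the peroxiredoxins, did not pass, and the list median was 0.04.

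In axon guidance and growth inhibition 1 of 71 rose and 3 fell. Sema3b, a secreted semaphorin, was at −1.41, −1.43 and −1.53 in young and −0.15, −0.03 and −0.20 in aged animals, with a rise of 1.33 ± 0.10 (adjusted p = 0.00092) that a second probe gave as 1.30. It held with slide as a block and with each animal left out. The membrane semaphorin genes Sema4d (−0.55, 0.020) and Sema6a (−0.38, 0.035) and the endothelial Robo4 (−0.45, 0.016) fell. These 3 did not pass with slide as a block (adjusted p from 0.071 to 0.29) and lost their calls in 5, 9 and 5 of the 9 fits with 1 animal left out, respectively. Among 64 ion pumps and exchangers, Slc9a3, the sodium-proton exchanger NHE3, was at −2.96, −3.31 and −3.47 in young and −1.85, −2.18 and −2.24 in aged animals and rose by 1.16 ± 0.15 (0.0059), holding in each of those fits. Car4, a membrane carbonic anhydrase, fell by 0.57 on the log2 scale (0.033; 0.11 with slide as a block, lost in 8 of 9 fits). Slc2a5, the fructose transporter GLUT5, rose by 0.76 ± 0.10 (0.0077) and held in each of those fits. Among 72 cadherins and synaptic adhesion genes none passed; Cdh1, E-cadherin, had the largest difference (4.55 ± 1.37, adjusted p = 0.17), with young animals at −1.19, −4.89 and −8.12 and aged ones at −0.10, −0.18 and −0.28.

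Genes of DNA repair and the cell cycle moved singly. Mgmt, the enzyme that removes alkyl groups from guanine, was at −0.27, −0.39 and −0.26 in young and 0.52, 0.53 and 0.69 in aged animals and rose by 0.89 ± 0.09 (adjusted p = 0.0032), the only call among 50 repair genes. Ccne2, cyclin E2, was at −1.62, −1.62 and −1.51 against −2.12, −2.15 and −2.14 (−0.55 ± 0.07, 0.0048), with a second probe at −0.52, the only call among 67 genes of cell cycle, p53 and senescence. Both held with slide as a block and with each animal left out. The senescence genes Cdkn1a (0.18) and Cdkn2a (0.39, adjusted p = 0.30) and the deacetylase gene Sirt1 (−0.03) did not pass. Fkbp5, a target of glucocorticoids, was at 1.05, 1.30 and 0.98 in young and 1.48, 1.76 and 2.00 in aged animals, without overlap, but did not pass (0.64, adjusted p = 0.088), and Zbtb16, another such target, differed by 0.25. Of 30 tested glucocorticoid-responsive genes 2 rose, Lyve1 (0.80), also a macrophage marker here, and Fam107a (0.56). The list median was 0.10, and 1 of the 2 passed with slide as a block. Gfap, the filament of astrocytes, was at 1.67, 1.54 and 1.18 against 2.58, 2.58 and 1.95; its difference of 0.90 ± 0.23 did not pass (0.11), and 0 of 14 astrocyte markers did.

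Among 43 immediate early and activity-dependent genes 2 rose, Ccn2, a matrix-associated signalling protein (0.93 ± 0.13, adjusted p = 0.011), and Gadd45b (0.62 ± 0.10, 0.017). Both passed with slide as a block; Ccn2 lost its call without young replicate 3 and Gadd45b without any 1 young replicate. The list median was −0.23, but −0.05 without young replicate 1, which had the highest level of the 6 animals in 23 of the 43 genes. On slide 3, where young replicate 3 was set against aged replicate 3 and that animal had no array, the median was −0.26.

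Cytosolic ribosomal protein genes differed by little each, but nearly all in 1 direction. None of 76 passed, yet 75 of 76 differences were positive, with a median of 0.18 and a range of −0.07 to 0.33. In 49 of the 76 every aged animal lay above every young one and in none below, beside 12.8% and 10% over all items. By unadjusted limma p under 0.05, 25 were higher and 0 lower. The list's median level relative to the young mean was −0.05, −0.03 and 0.08 in the young and 0.17, 0.14 and 0.24 in the aged animals, so the groups were apart by less than most single calls above. The slide block gave a list median of 0.15, slide 3 alone 0.15, and all alternatives together 0.13 to 0.26. The largest single difference, that of Rps20 (6.05, 6.16 and 6.32 against 6.44, 6.46 and 6.61), was 0.33 with an adjusted p of 0.14. Translation factors (0 of 52, median 0.01), complex I subunits (0 of 31, 0.03), the other respiratory complexes (0 of 39, 0.02), the tricarboxylic acid cycle (0 of 24, −0.05), the proteasome (0 of 36, 0.03), heat shock proteins (0 of 59, −0.03), the unfolded protein response (0 of 43, −0.02), apoptosis (0 of 39, 0.04) and histones and chromatin enzymes (0 of 63, −0.06) held no call either. By limma's unadjusted p, 2359 items were higher and 1475 lower at p under 0.05 over the whole array.

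**Figure D5:**
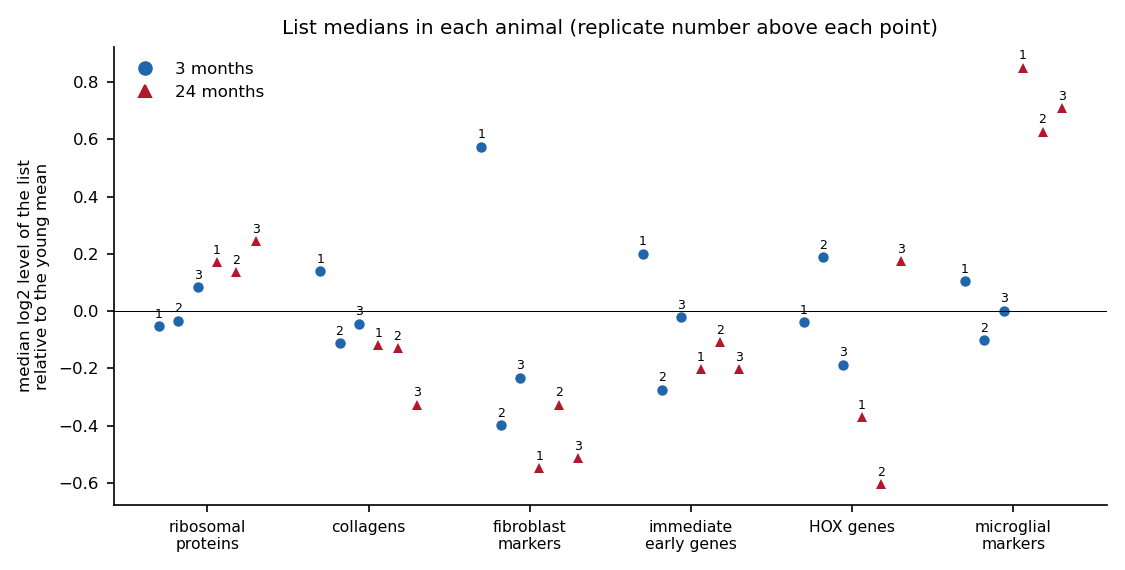
Each point is the median over a gene list of 1 animal's log2 levels relative to the young mean, with the replicate number above it; circles are 3 months and triangles 24 months. Ribosomal proteins and microglial markers separate the ages, young replicate 1 is the high circle for fibroblast markers and immediate early genes, and young replicate 2 and aged replicate 3 are the high points for HOX genes.

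Most of the 194 genes were on no list (133), and few shared a symbol stem. The stems with 3 or more members among them were Slc (6 of 266 tested), C (4 of 103, all 4 of them symbols of open reading frames), Arhgap (3 of 27), Fam (3 of 72), Myo (3 of 16) and Sema (3 of 20). Over all items 2.02% passed, and the Slc count is close to that share. The 3 unconventional myosins Myo1f, Myo1g and Myo7a all rose, and the first 2 are known from leukocytes. At the threshold, Samsn1 (1.35) and Celsr2 (0.42) were just inside with an adjusted p of 0.0495 each (Celsr2 0.23 with slide as a block), and Naip5 (1.18, 0.0508) and Pigq (−0.50, 0.0509) were just outside. For 34 of the 194 genes another kept probe was available; in 29 every probe had the same sign, and in 5 (Atad1, Col4a5, Ctnnd2, Ptpn3 and Srgap2) 1 did not. With slide as a block Atad1 (adjusted p = 0.064), Ctnnd2 (0.062) and Srgap2 (0.056) did not pass.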

How the data were processed

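Fluorescence intensity on a linear scale was deposited by the authors, made with Agilent Feature Extraction 9.5.1.1; per the file headers the processed signal had its background subtracted and was detrended over the array, and probe positions are on rn3. The deposited series matrix holds a score with mean 0 and SD 1 within each array, whose log base is not given in the sources used here, and served as an alternative only. Flags in the deposited files (0 or 1) gave outlier, saturated and well-above-background spots.

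Each of the 12 arrays had 43379 non-control spots; 57 to 140 outlier spots were left out, 0 were saturated and 73.5% to 77.1% were well above background. The number of arrays limits the precision. The log2 of the deposited intensity was taken, the 75th percentile of an array's non-control spots was subtracted, and both arrays of an animal were averaged. Probes were kept where every array of 1 or more groups was well above background (29805 of 41012). Names came from RefSeq by accession (10726 and 117 probes) or by name or synonym (9251), or from the array file (3314); 17604 probes have none. A gene was read from its kept probe with the highest mean signal.

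Group means of all 9 animals were fitted with limma 3.58.1 (R 4.3.3), since the middle-aged animals add to the estimate of the spread; p-values measure the spread between these animals. With 3 against 3 an exact permutation test of a single value cannot go below p = 0.1. Where a group was not well above background, the fold is a bound against the lowest signal that was, per array. Named were the 20 largest rises and falls, up to 6 passing members of each list with its largest and brightest members, a set of RVLM and ageing genes, and genes next to the threshold. Genes outside that rule were singled out after their values were seen. Examples are Pcp2, Birc7, Cnr2, the Cyp2 genes, Ass1, Urah, Pygl, Pxmp4, Bmal1, Npas2, the Fmo, Gsta and Per relatives and the myosins. The comparison, the gene lists and the named genes were chosen with earlier results of these data known. Alternatives covered slide, background correction, scaling, filter, probe and replicate choices. Some genes that the rule names are not reported here.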

Additional observations from a re-analysis of the deposited data

How the results depend on the processing

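Of the 513 items that passed, 266 also passed with slide as a block. None of the 100 passing genes that the naming rule picked changed its direction under the alternatives that were run. Pxmp4, singled out after its values were seen, changed sign with slide as a block (0.03, adjusted p = 0.98). The total of passing items was 301 with slide as a block (243 higher, 58 lower), 307 with normexp (223 and 84), 282 without a filter on dim probes (226 and 56) and 339 with only the young and aged animals in the fit (263 and 76). It was 430 to 615 under the 12-array, quantile, median, series matrix, every-array filter, single-array, mean-probe and intensity-trend alternatives. Leaving out 1 animal gave 253 to 488 items (202 to 358 higher, 51 to 130 lower): 253 without young replicate 3, 290 without aged replicate 2, 301 without young replicate 2, 302 without aged replicate 1, 329 without aged replicate 3 and 352 without young replicate 1, where 53 were lower. With young replicate 2 and aged replicate 3 both left out, an alternative chosen after seeing the data, 143 items passed (119 higher, 24 lower), 131 of them among the 513. The replicate numbers do not pair the animals: deviations of same-numbered young and aged animals correlated at 0.135, −0.197 and −0.271. With the replicate block 341 items passed (273 higher, 68 lower).

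Of the 335 genes examined by the naming rule, 100 passed. Of these, 62 also passed with slide as a block, 67 with normexp, 59 without the filter, 70 with the replicate block and 28 with young replicate 2 and aged replicate 3 both left out. The cause of the lost calls was not tested. Dim genes carry the largest differences between background corrections: Mlph gave 2.66 in the main scaling and 0.50 with normexp, Capn6 −2.40 and −0.46. Signal over background therefore limits the fold changes of genes near background.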
